A study of Mus musculus with 28 samples.

Results

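The colony-stimulating factor (CSF) receptors and ligands described here were 7 of the 48587 genes in a count table of hippocampal microglia: the ligands *Csf1* and *Il34*, their receptor *Csf1r*, the GM-CSF receptor chain *Csf2ra*, the beta chains *Csf2rb* and *Csf2rb2*, and the G-CSF receptor *Csf3r*. They were taken as a list of names, with no threshold on their values, and all 7 were found in the table. Each library held RNA of CD11b+CD45lo microglia sorted by FACS from the hippocampi of 1 mouse, after other immune cells had been gated out by a panel of antibodies. The study asked how gut microbiota act on microglia in 5xFAD mice, a model of Alzheimer's disease, by comparing specific pathogen free (SPF), germ-free (GF) and antibiotic-treated (ABX) mice.

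Of the 28 mice, 14 were WT (5 SPF, 4 GF and 5 ABX) and 14 were 5xFAD (3 SPF, 5 GF and 6 ABX), all male, on a C57BL/6J background and aged 16 weeks. 5xFAD mice were heterozygous for transgenes of mutant human APP and PS1 under the neuron-specific Thy1 promoter, and WT mice were their littermates without them. ABX mice were SPF mice that drank vancomycin, cefoxitin, gentamicin and metronidazole for 8 weeks, and GF mice were born without microbiota in another facility (Bern) than the SPF and ABX mice (Freiburg), which means that an effect of GF housing and one of the facility cannot be told apart. A mouse is named here by its library title, as in FAD_GF_201, which has FAD for 5xFAD. Mouse FAD_GF_201 was 5xFAD by title and genotype label and WT by its description. The pairwise calls of members that rest on it, and some tests that missed the threshold, are given with and without it. The summed CPM of 10 markers of amyloid-activated microglia was 12379 in FAD_GF_201, against 2657 to 4168 in the 14 WT mice and 8474 to 20879 in 5xFAD mice. The descriptions also followed 3 styles of numbering, which were not known to be batches, and of the genotype comparisons only that in GF mice lay within 1 style. The 3 SPF 5xFAD mice and FAD_ABX_1151 made up 1 of these styles. GF against SPF in either genotype, and ABX against GF in WT mice, compared groups that shared no style. The genotype comparisons in SPF and ABX mice did so too. In all of these, a difference of the groups and one of the style cannot be told apart.

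CSF1 and IL-34 are the ligands of CSF1R, a receptor tyrosine kinase that microglia need to survive, and in the brain IL-34 is made mainly by neurons. GM-CSF binds a receptor of a private alpha chain (*Csf2ra*) and a beta chain (*Csf2rb*) that the IL-3 and IL-5 receptors also use. Mice carry a near copy of this beta chain, *Csf2rb2*, which pairs with the IL-3 receptor alpha chain. CSF3R binds G-CSF and is best known from neutrophils.

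The exon models of the table place *Csf1* on chromosome 3 (107741048 to 107760469, minus strand) of GRCm38. *Csf2ra* lies on chromosome 19 (61224402 to 61228418, minus strand) and *Csf3r* on chromosome 4 (126024550 to 126044440, plus strand). *Csf2rb* (78325990 to 78351000, plus strand) and *Csf2rb2* (78282517 to 78305603, minus strand) are neighbours on chromosome 15.

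*Csf1* and *Csf2ra* were the members that rose in 5xFAD mice under all 3 conditions, and the 250 bases before their RefSeq starts are shown because both genes moved together. RefSeq promoters were matched for 4 of the 7 members. Capitals mark matches, on either strand, to the NF-kappaB motif (GGGA and CC with any 4 bases between them), GAGGAA (the core bound by PU.1) and TGACGTCA (the cAMP response element). No match to TGANTCA (AP-1) was found in either window.
Csf1, chr3:107760470-107760719, minus strand, GRCm38.p6: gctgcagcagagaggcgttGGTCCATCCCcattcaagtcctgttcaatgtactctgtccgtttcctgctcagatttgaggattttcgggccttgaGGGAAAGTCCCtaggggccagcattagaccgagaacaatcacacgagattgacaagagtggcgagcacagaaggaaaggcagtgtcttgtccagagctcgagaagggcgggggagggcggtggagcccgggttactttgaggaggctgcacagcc
Csf2ra, chr19:61228419-61228668, minus strand, GRCm38.p6: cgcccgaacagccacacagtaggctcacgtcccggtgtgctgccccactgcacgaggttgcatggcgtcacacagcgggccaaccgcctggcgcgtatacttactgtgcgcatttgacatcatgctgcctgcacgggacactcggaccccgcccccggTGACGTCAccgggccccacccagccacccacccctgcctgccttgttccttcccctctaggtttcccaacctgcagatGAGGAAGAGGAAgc
The *Csf1* window held 3 matches to the NF-kappaB motif, of which the pair in GGGAAAGTCCC overlaps on opposite strands. The *Csf2ra* window held 2 matches to GAGGAA and 1 to TGACGTCA. Of the other matched members, *Csf3r* had 1 match to the NF-kappaB motif and 1 to GAGGAA, and *Csf2rb2* had 1 to GAGGAA. Of 32851 promoter windows of this length, 17.6 percent held the NF-kappaB motif, 23.3 percent GAGGAA, 1.55 percent TGACGTCA and 6.75 percent TGANTCA. A match is a string of letters and not a site that was measured to be bound.

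*Csf2rb* and *Csf2rb2* are so alike that their reads can be assigned to the wrong gene or dropped. Their coding sequences were identical at 2503 of 2628 aligned bases (95.2 percent), with a longest identical run of 242 bases, and 28.8 percent of 50-base windows, the length of the reads, had no mismatch. Over all their annotated transcripts, untranslated parts included, 12.3 percent of the 50-base stretches of *Csf2rb* and 18.4 percent of those of *Csf2rb2* were shared with the other gene. The window where the genes differ most (12 mismatches, in capitals, bases 309 to 358 of the *Csf2rb* and 312 to 361 of the *Csf2rb2* coding sequence in GENCODE M21) is the kind of stretch by which a read can be assigned.
Csf2rb: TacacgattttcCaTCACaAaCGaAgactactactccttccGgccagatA
Csf2rb2: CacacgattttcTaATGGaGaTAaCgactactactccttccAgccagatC

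Levels are given as CPM (read counts scaled to a common library total, with TMM factors), and levels of different genes are compared only as CPM per kb of exon. Library totals ranged from 14441610 to 29977395 reads on genes. Per length, *Csf1r* stood far above the other members, with a median of 2901 CPM per kb over the 28 mice (range 2257 to 3430), and it ranked 11 of 15298 tested genes. *Csf3r* followed at a median of 160 CPM per kb, then *Csf2ra* at 58.0, *Csf2rb* at 22.0, *Csf1* at 13.8 and *Csf2rb2* at 7.97. *Csf1r* alone took between 1.18 and 1.66 percent of all reads. The ranges of *Csf2rb* (17.0 to 26.9 CPM per kb) and *Csf1* (2.87 to 48.6 CPM per kb) overlapped, and those of *Csf1* and *Csf2rb2* (3.19 to 12.3 CPM per kb) did as well.

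**Figure D1:**
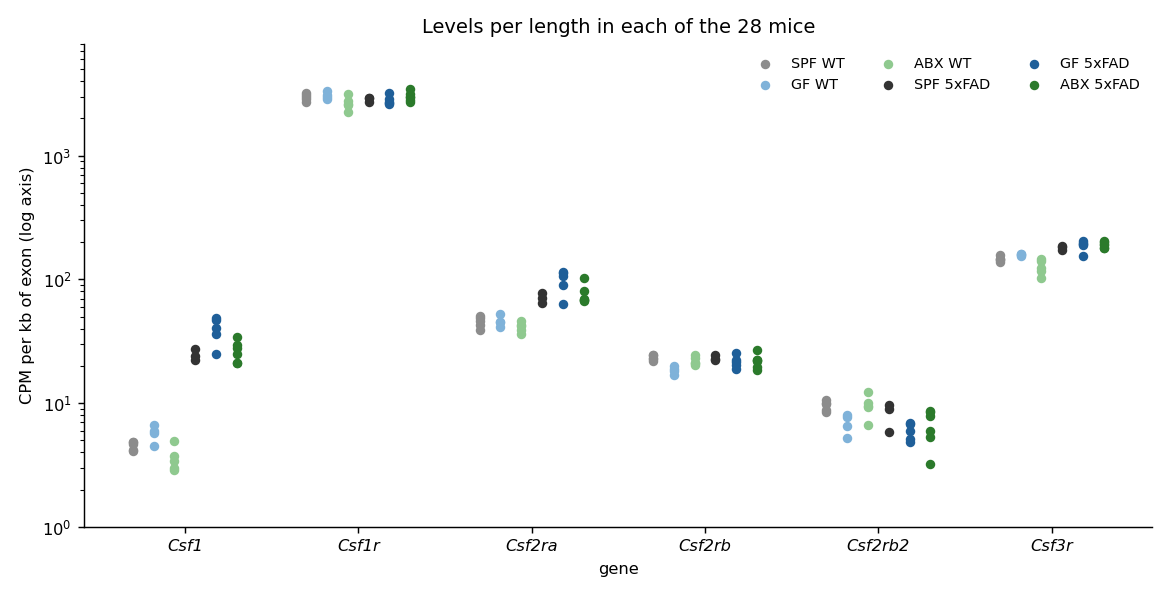
CPM per kb of exon (vertical log axis) of the 6 members with reads in every mouse, each point being 1 mouse and each colour 1 of the 6 groups. Csf1r sits near 2901 CPM per kb in all groups, while the WT and 5xFAD points of Csf1 separate.

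The second ligand was all but unread. *Il34* (chromosome 8, 110741829 to 110805924, minus strand) had 5 reads in all 28 libraries, 2 in mouse WT_SPF_926 and 3 in mouse FAD_SPF_1144, and it was at 0 in the other 26 mice. With 3 reads as the limit that a count of 0 allows, a level of up to 0.208 CPM in the shallowest library could have gone unread, a limit that covers counting error only. *Il34* did not pass the filter on low counts, so 6 of the 7 members were tested. Its exact two-sided permutation p on log2(CPM + 0.1) was at or above 0.333 in all 9 pairwise comparisons.

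Across the 6 groups, 4 of the 6 tested members differed (*Csf1*, *Csf2ra*, *Csf3r* and *Csf2rb2*) by an edgeR F test, beside 33.2 percent of all 15298 tested genes. *Csf1r* (adjusted p = 0.217) and *Csf2rb* (adjusted p = 0.0785) did not pass. Of 8 other settings of this F test, 2 called *Csf1r* (adjusted p from 0.0339) and 4 called *Csf2rb* (from 0.00888). A pairwise difference between groups is given below as a log2 fold change of edgeR with its standard error (SE), and p was adjusted by Benjamini-Hochberg over all tested genes, with a threshold of 0.05. These are bulk libraries, so more cells in a state or type and more RNA per cell cannot be told apart.

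*Csf1* rose in 5xFAD mice under every condition, by the largest factor among the members. SPF WT mice had 21.5, 25.5, 21.9, 25.4 and 24.7 CPM, GF WT mice 30.1, 31.3, 35.2 and 23.9 CPM, and ABX WT mice 26.2, 19.8, 15.2, 15.7 and 18.0 CPM. SPF 5xFAD mice had 127, 145 and 118 CPM, GF 5xFAD mice 214, 257, 193, 247 and 132 CPM, and the 6 ABX 5xFAD mice between 111 and 180.5 CPM with a median of 140 CPM. Every 5xFAD mouse was above every WT mouse, and the lowest GF 5xFAD value was that of FAD_GF_201. The rise was 5.46-fold in SPF mice (log2 2.45, SE 0.181, adjusted p = 6.24e-11), 6.91-fold in GF mice (log2 2.79, SE 0.184, adjusted p = 4.68e-12) and 7.37-fold in ABX mice (log2 2.88, SE 0.168, adjusted p = 3.15e-13). Without FAD_GF_201 the log2 fold change in GF mice was 2.92, and with it placed among GF WT mice 2.17 (adjusted p = 2.06e-05). All 28 fits that left out 1 mouse and all 9 other settings kept *Csf1* past the threshold in all 3 conditions.

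*Csf1* also differed between housing conditions, with the highest group mean in GF mice of both genotypes. In 5xFAD mice it was higher in GF than in SPF mice (208 ± 49.6 against 130 ± 13.8 CPM, SD, n = 5 and 3; log2 0.68, SE 0.185, edgeR adjusted p = 0.0157) and lower in ABX than in GF mice (140 ± 27.0 CPM, SD, n = 6; log2 -0.58, SE 0.149, edgeR adjusted p = 0.0139). In WT mice it was lower in ABX than in GF mice (19.0 ± 4.45 against 30.2 ± 4.68 CPM, SD, n = 5 and 4; log2 -0.67, SE 0.173, edgeR adjusted p = 0.0191). The groups of all 3 comparisons overlapped, and the first and the second share the GF 5xFAD mice. The first and the third also lay wholly across numbering styles. GF against SPF in WT mice gave a log2 difference of 0.34 (95% interval -0.01 to 0.69, adjusted p = 0.318), or 1.09 (adjusted p = 0.0329) with FAD_GF_201 placed among GF WT mice, and ABX against SPF gave -0.33 (-0.66 to 0.01) in WT and 0.11 (-0.25 to 0.47) in 5xFAD mice.

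These housing calls were less firm than those of genotype. GF against SPF in 5xFAD mice was no longer called without FAD_SPF_1144 (adjusted p = 0.0520), without FAD_SPF_1148 (adjusted p = 0.104) or with FAD_GF_201 placed among GF WT mice (adjusted p = 0.128), and stood at a log2 difference of 0.80 (adjusted p = 0.00271) with FAD_GF_201 left out. ABX against GF in WT mice was not called without WT_ABX_911 (adjusted p = 0.0604), WT_GF_229 (0.0560) or WT_GF_230 (0.0708), nor by voomWithQualityWeights (0.0537), and stood at -1.42 (adjusted p = 0.00352) with FAD_GF_201 among GF WT mice. ABX against GF in 5xFAD mice held in all 28 fits that left out 1 mouse (log2 -0.70, adjusted p = 0.00149, without FAD_GF_201), but was not called with only both groups in the fit (0.0891) or with FAD_GF_201 among WT mice (0.110). Without FAD_ABX_1151, which leaves mice of 1 numbering style, it was -0.51 (adjusted p = 0.0430). In the comparison of ABX with GF WT mice, markers of border-associated macrophages, which line vessels and meninges, were also lower (5 of 8, and 7 of 8 without FAD_GF_201), with a summed CPM of 3.57 to 5.83 in ABX and 10.7 to 43.5 in GF WT mice. *Apoe* and *Axl* of the 10 markers of amyloid-activated microglia and *Cxcr2* of the 7 neutrophil markers tested were lower there as well, and their part in the difference of *Csf1* was not tested. In GF against SPF 5xFAD mice, 5 of 7 neutrophil markers (6 without FAD_GF_201) and the monocyte marker *Chil3* were lower and 4 of 10 markers of amyloid-activated microglia higher. In ABX against GF 5xFAD mice, 4 of 7 neutrophil markers, *Chil3* (not called without FAD_GF_201) and the macrophage marker *Mrc1* (5 of 8 macrophage markers without FAD_GF_201) were higher, *Cxcr2* was lower, and 7 of 10 markers of amyloid-activated microglia were lower (8 without FAD_GF_201). Of the 6 astrocyte markers tested, *Aldh1l1* and *Slc1a3* were higher there too, and so was *Gad1* of the 6 neuron markers tested. Of the 10 microglia markers, 3 were higher and 1 lower (4 and 1 without FAD_GF_201). Of the ABX 5xFAD mice, FAD_ABX_1151 had a summed CPM of neutrophil markers of 141 and the other 5 between 0.0577 and 5.08, against less than 3 in each GF 5xFAD mouse. The part of these markers in the differences of *Csf1* between 5xFAD groups was not tested either.

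*Csf1r*, the receptor of both ligands, lies on chromosome 18 (61105572 to 61132149, plus strand). Of its 4885 exonic bases, 871 overlap exons of *Hmgxb3* on the other strand, and since the library kit does not mark strand, reads of both genes cannot be told apart there. *Csf1r* passed the threshold in none of the 9 pairwise comparisons of edgeR, of which 3 had an unadjusted p under 0.05. SPF WT mice had 13335, 15608, 14077, 15199 and 14531 CPM, GF WT mice 16348, 15178, 14036 and 14569 CPM, and ABX WT mice 12734, 12522, 11027, 13615 and 15543 CPM. SPF 5xFAD mice had 13278, 14353 and 14270 CPM, GF 5xFAD mice 12908, 13940, 13072, 13170 and 15589 CPM, and ABX 5xFAD mice between 13232 and 16754 CPM with a median of 14529 CPM. The ranges of all 6 groups overlapped, and the highest and the lowest mouse differed 1.52-fold. The log2 difference of 5xFAD from WT mice in SPF mice was -0.06 (95% interval -0.23 to 0.11), that in GF mice -0.13 (-0.29 to 0.03; -0.17 and adjusted p = 0.126 without FAD_GF_201) and that in ABX mice 0.17 (0.03 to 0.31, adjusted p = 0.109). At this depth, with between 185569 and 471960 *Csf1r* reads a library, counting error was small beside the spread between mice.

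A call for *Csf1r* depended on single mice and on scaling. Without WT_ABX_932, the highest of the ABX WT mice, the difference of 5xFAD from WT in ABX mice was 0.24 (adjusted p = 0.0166) and that of ABX from GF in WT mice -0.27 (adjusted p = 0.0233, against 0.112 with all mice). When scaled by library size alone, *Csf1r* was lower in GF 5xFAD than in GF WT mice (log2 -0.25, adjusted p = 0.0117), in a fit where the median of all genes was -0.150. With FAD_GF_201 among WT mice, ABX against GF in WT mice gave -0.21 (adjusted p = 0.0489).

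*Csf1r* stood less far above its ligand in 5xFAD mice. Within a library, where scaling drops out, *Csf1r* per kb was between 431 and 935 times *Csf1* per kb in WT mice and between 57.7 and 141 times in 5xFAD mice. This ratio was 662 ± 22.7 in SPF WT and 117 ± 12.2 in SPF 5xFAD mice (SD, n = 5 and 3), and 550 ± 96.4 in GF WT and 76.5 ± 29.1 in GF 5xFAD mice (SD, n = 4 and 5). In ABX mice it was 773 ± 174 in WT and 116 ± 19.9 in 5xFAD mice (SD, n = 5 and 6). These ratios are a description and were not tested.

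**Figure D2:**
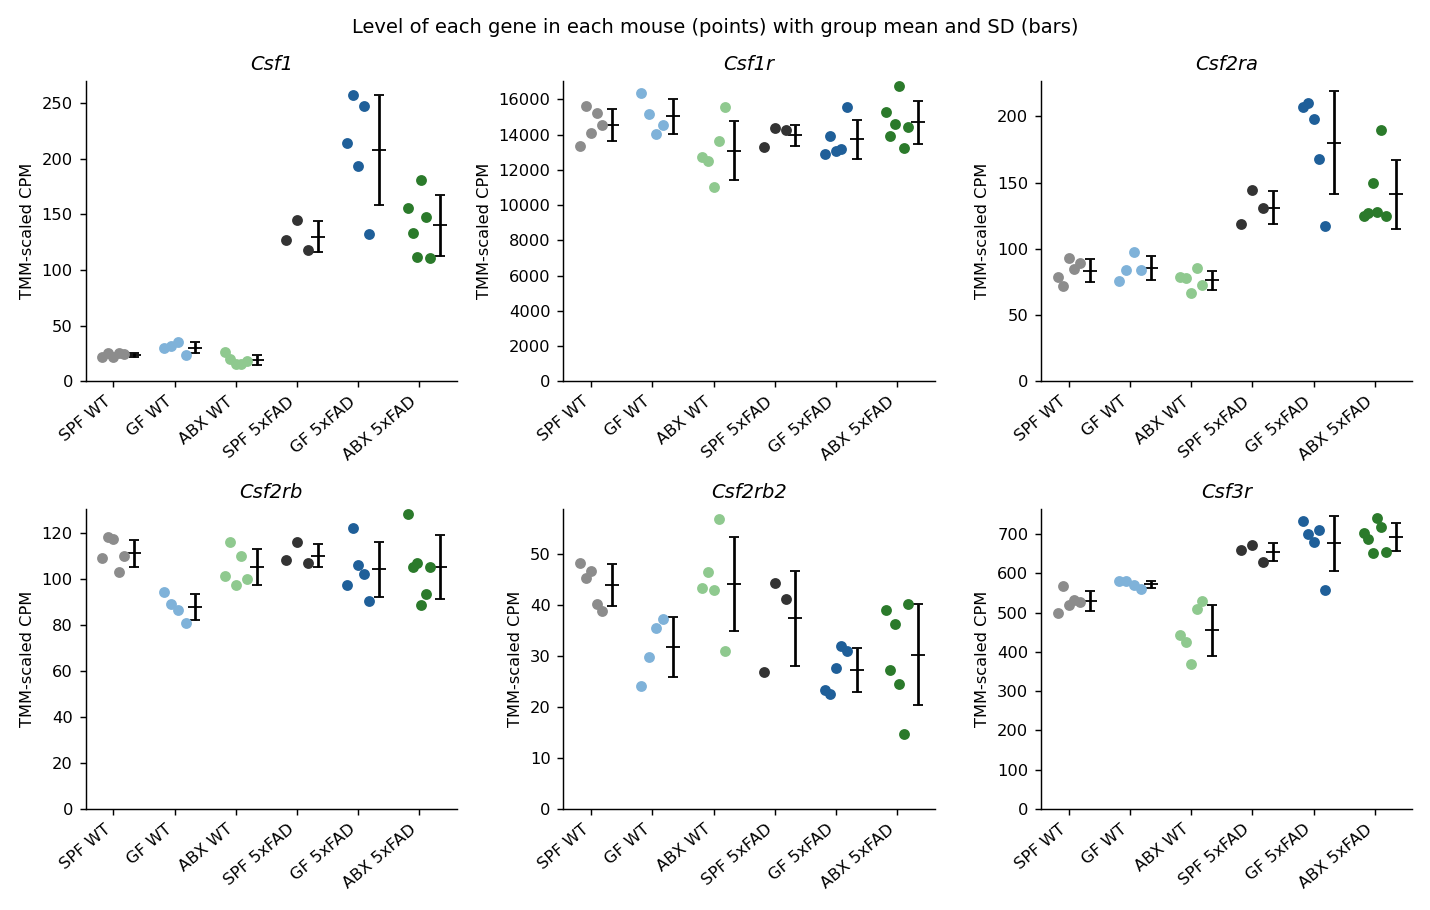
TMM-scaled CPM (vertical axes from 0) of 6 members in each mouse, with points for mice and bars for the group mean and SD beside them. Every 5xFAD mouse lies above every WT mouse for Csf1 (111 CPM or more against 35.2 CPM or less) and for Csf2ra, while Csf1r and Csf2rb overlap between genotypes.

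*Csf2ra*, the alpha chain that makes the GM-CSF receptor specific, rose in 5xFAD mice under every condition as well, by less than *Csf1*. SPF WT mice had 78.4, 72.1, 93.3, 84.6 and 89.3 CPM, GF WT mice 75.7, 83.9, 97.6 and 84.0 CPM, and ABX WT mice 78.6, 78.1, 66.7, 85.8 and 72.4 CPM. SPF 5xFAD mice had 119, 144 and 131 CPM, GF 5xFAD mice 207, 210, 198, 168 and 117 CPM, and ABX 5xFAD mice between 125 and 190 CPM with a median of 128 CPM. No 5xFAD mouse fell into the range of WT mice, FAD_GF_201 again being the lowest of its group. The rise was 1.57-fold in SPF mice (log2 0.65, SE 0.150, adjusted p = 0.00654), 2.11-fold in GF mice (log2 1.08, SE 0.143, adjusted p = 2.27e-06) and 1.85-fold in ABX mice (log2 0.89, SE 0.128, adjusted p = 1.11e-05). Without FAD_GF_201 the log2 fold change in GF mice was 1.21 (adjusted p = 2.67e-08). All 28 fits without 1 mouse and all 9 other settings kept these calls.

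Between conditions, *Csf2ra* stood near the threshold. In 5xFAD mice it was higher in GF than in SPF mice (180 ± 39.0 against 131 ± 12.6 CPM, SD, n = 5 and 3; log2 0.46, SE 0.154, edgeR adjusted p = 0.0484), but 25 of 28 fits without 1 mouse lost this call, with adjusted p up to 0.180 (without FAD_SPF_1144). Without FAD_GF_201 it was 0.57 (adjusted p = 0.00537). ABX against GF in 5xFAD mice gave -0.35 (SE 0.125, edgeR adjusted p = 0.0684), and was called without FAD_GF_201 (-0.47, adjusted p = 0.00558) or without FAD_ABX_1482 (-0.45, adjusted p = 0.00903), the highest of the ABX 5xFAD mice at 190 CPM. With mice of 1 numbering style, that is without FAD_ABX_1151, it was -0.31 (adjusted p = 0.156). The neutrophil markers (5 of 7 lower in GF than in SPF, 4 of 7 higher in ABX than in GF 5xFAD mice, with 141 CPM in FAD_ABX_1151 and at most 5.08 in the other ABX 5xFAD mice) and the markers of amyloid-activated microglia (4 of 10 higher in GF than in SPF, 7 of 10 lower in ABX than in GF 5xFAD mice) moved in the same comparisons, and their part in the values of *Csf2ra* was not tested. In WT mice the group means lay between 76.3 and 85.3 CPM, and no housing difference of *Csf2ra* passed.

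*Csf2rb*, the beta chain shared by the GM-CSF, IL-3 and IL-5 receptors, passed in none of the pairwise comparisons of edgeR, with an unadjusted p under 0.05 in 3. SPF WT mice had 109, 118, 117, 103 and 110 CPM, GF WT mice 94.2, 89.2, 86.3 and 80.9 CPM, and ABX WT mice 101, 116, 97.2, 110 and 100 CPM. SPF 5xFAD mice had 108, 116 and 107 CPM, GF 5xFAD mice 97.4, 122, 106, 102 and 90.3 CPM, and ABX 5xFAD mice between 88.7 and 128 CPM with a median of 105 CPM. The 4 GF WT mice were below every other WT mouse, and the 5xFAD groups overlapped with each other. GF against SPF in WT mice was -0.34 (95% interval -0.54 to -0.14, adjusted p = 0.0654), and 5 of 9 other settings called it, among them DESeq2 (adjusted p = 0.0205) and voomWithQualityWeights (0.00625). The difference of 5xFAD from WT mice was -0.01 (-0.22 to 0.21) in SPF and -0.00 (-0.18 to 0.17) in ABX mice, and 0.24 (0.04 to 0.44, adjusted p = 0.0928) in GF mice, where leaving out FAD_GF_201 gave 0.30 (adjusted p = 0.0380).

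*Csf2rb2*, the near copy of the beta chain, differed among the 6 groups (F test, adjusted p = 0.0217) but passed in no single comparison of edgeR, with an unadjusted p under 0.05 in 3. SPF WT mice had 48.2, 45.4, 46.7, 40.2 and 38.9 CPM, GF WT mice 24.2, 29.9, 35.6 and 37.2 CPM, and ABX WT mice 43.4, 46.4, 43.0, 56.8 and 31.0 CPM. SPF 5xFAD mice had 26.8, 44.3 and 41.2 CPM, GF 5xFAD mice 23.4, 22.5, 27.7, 31.9 and 31.0 CPM, and ABX 5xFAD mice between 14.7 and 40.2 CPM with a median of 31.8 CPM. GF mice of either genotype lay at or below 37.2 CPM, and all SPF WT mice above it. The difference of 5xFAD from WT in ABX mice was -0.54 (SE 0.191, adjusted p = 0.0580), and was called without WT_ABX_932 (-0.64, adjusted p = 0.0267), FAD_ABX_1151 (-0.63, 0.0253), FAD_ABX_1452 (-0.62, 0.0387) or FAD_ABX_1455 (-0.59, 0.0475), and by 3 of 9 other settings, among them DESeq2 (-0.53, 0.0393). voomWithQualityWeights called the difference of GF from SPF 5xFAD mice (-0.59, adjusted p = 0.0190, against -0.45 and 0.201 by edgeR, and -0.51 and 0.169 by edgeR without FAD_GF_201).

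Of the reads of both beta chains, *Csf2rb2* held 28.3 ± 1.65 percent in SPF WT, 26.6 ± 4.86 in GF WT and 29.4 ± 3.81 in ABX WT mice (SD, n = 5, 4 and 5, of scaled counts). In 5xFAD mice its share was 25.1 ± 4.57 percent in SPF and 22.0 ± 4.87 percent in ABX mice (SD, n = 3 and 6), and between 15.6 and 25.6 percent in the 5 GF mice. With the reads of both genes summed, which removes wrong assignment between them, the sum differed among the 6 groups (adjusted p = 0.0324) and no pairwise comparison passed. The lowest adjusted p of the sum was 0.0548, for GF against SPF (log2 -0.38) and for ABX against GF (log2 0.32) in WT mice.

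The alpha chain stood further above the beta chain in 5xFAD mice. Within a library, *Csf2ra* per kb was between 1.58 and 2.91 times *Csf2rb* per kb in WT mice and between 2.52 and 5.48 times in 5xFAD mice. In each condition the lowest 5xFAD ratio (2.82, 3.33 and 2.52 in SPF, GF and ABX mice) was above the highest WT ratio (2.10, 2.91 and 2.01), a description that was not tested.

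*Csf3r*, the G-CSF receptor, rose in ABX 5xFAD mice and, in a call that depended on single mice, in SPF 5xFAD mice, by less than *Csf2ra*. SPF WT mice had 499, 567, 518, 532 and 527 CPM, GF WT mice 579, 579, 569 and 560 CPM, and ABX WT mice 442, 425, 370, 509 and 529 CPM. SPF 5xFAD mice had 659, 673 and 629 CPM, GF 5xFAD mice 733, 700, 679, 711 and 557 CPM, and ABX 5xFAD mice between 652 and 740 CPM with a median of 695 CPM. Apart from FAD_GF_201 at 557 CPM, every 5xFAD mouse was above every WT mouse. The rise was 1.52-fold in ABX mice (log2 0.61, SE 0.0769, adjusted p = 1.29e-06) and 1.24-fold in SPF mice (log2 0.31, SE 0.0911, adjusted p = 0.0484). In GF mice it was 1.18-fold (log2 0.24, SE 0.0847) and missed the threshold with an adjusted p of 0.0509, while it passed without FAD_GF_201 (0.31, adjusted p = 0.00530). In all, 5 of 9 other settings and 8 of 28 fits without 1 mouse called the rise in GF mice, with adjusted p from 0.00511.

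Both calls of *Csf3r* in 5xFAD against WT mice came from groups that shared no numbering style. The call in ABX mice held in all 28 fits without 1 mouse and all 9 other settings, and the call in SPF mice in 17 and 6 of them. In SPF mice it was lost without any 1 of the 3 SPF 5xFAD mice (adjusted p = 0.149, 0.138 and 0.0657 without FAD_SPF_1144, FAD_SPF_1146 and FAD_SPF_1148). It was also lost without WT_SPF_912 (0.111), WT_SPF_926 (0.0655), WT_SPF_928 (0.0810) or WT_SPF_936 (0.0833), and without 4 mice of other groups, with adjusted p between 0.0528 and 0.0574. Gene length offsets gave 0.25 (adjusted p = 0.155). ABX WT mice were lower than GF WT mice, without overlap (455 ± 64.7 against 572 ± 8.96 CPM, SD, n = 5 and 4; log2 -0.33, SE 0.0841, edgeR adjusted p = 0.0171), a call that was lost without WT_ABX_911 (adjusted p = 0.0539) or WT_GF_229 (0.0534). Border-associated macrophage markers were lower in this comparison too, 5 of 8 (7 without FAD_GF_201). So were *Cxcr2* of the 7 neutrophil markers tested and 2 of 10 markers of amyloid-activated microglia. The part of these markers in the difference of *Csf3r* was not tested. The 5xFAD effect on *Csf3r* in ABX mice exceeded that in GF mice by 0.36 (SE 0.114, adjusted p = 0.0933), which passed with DESeq2 (0.0433), with library size alone (0.0355) and without WT_ABX_932 (0.0396) or WT_ABX_923 (0.0493), and stood at 0.30 (adjusted p = 0.112) without FAD_GF_201.

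Markers of neutrophils, which also express *Csf3r*, were not even across the groups. The summed CPM of 10 neutrophil markers (*Ngp*, the most abundant, among them) was 62.1, 192 and 270 in the SPF 5xFAD mice and 141 in FAD_ABX_1151, and between 0 and 5.08 in the other 24 mice. These 4 mice are the ones that share a style of numbering of their own, so that in SPF mice the style, the neutrophil markers and the genotype cannot be told apart. The panel used to gate out other cells held antibodies to Ly6G and Ly6C, which mark neutrophils and monocytes. In SPF 5xFAD mice, *Ngp* alone was between 16.6 and 94.8 CPM and 0 in all SPF WT mice. Of the 7 neutrophil markers tested, 6 rose in SPF and 6 in ABX 5xFAD mice, and 0 in GF 5xFAD mice, with or without FAD_GF_201. Of the 4 monocyte markers tested, 1 rose in SPF (*Chil3*), 2 in ABX (*Chil3* and *Ccr2*) and 0 in GF 5xFAD mice, again with or without FAD_GF_201, with a summed CPM of 3.72 to 19.5 in WT and 8.37 to 54.4 in 5xFAD mice. In GF mice, where the sum was under 3 CPM in each mouse, *Csf3r* was 572 ± 8.96 CPM in WT and 676 ± 69.4 CPM in 5xFAD mice (SD, n = 4 and 5). Without FAD_ABX_1151 the rise of *Csf3r* in ABX mice was 0.62 (adjusted p = 1.17e-06). The part of neutrophil and monocyte RNA in the SPF and ABX 5xFAD values of *Csf3r* was not tested.

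**Figure D3:**
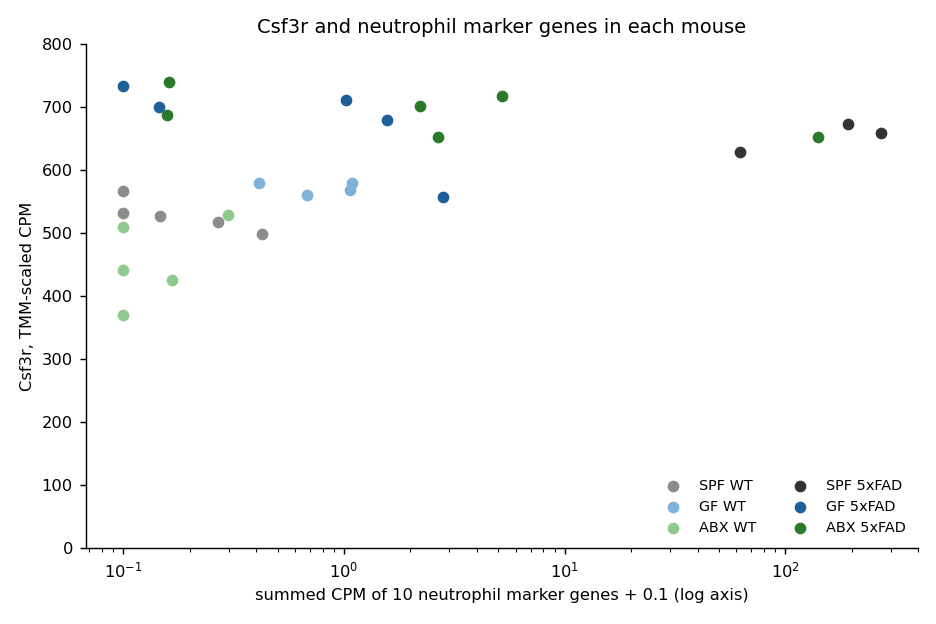
Csf3r level (TMM-scaled CPM, vertical axis from 0) against the summed CPM of 10 neutrophil markers with 0.1 added (horizontal log axis), each point being 1 mouse. The 3 SPF 5xFAD mice and FAD_ABX_1151 lie far to the right at 62.1 CPM or more, and the other 24 mice, at 5.08 CPM or less, have between 370 and 740 CPM of Csf3r.

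Over the comparisons, 3 of 6 tested members rose in SPF 5xFAD mice (*Csf1*, *Csf2ra* and *Csf3r*), beside 4.57 percent of all tested genes called in either direction. In GF mice 2 of 6 rose (*Csf1* and *Csf2ra*; background 15.6 percent) and in ABX mice 3 of 6 (*Csf1*, *Csf2ra* and *Csf3r*; background 14.4 percent), and no member fell. Between conditions, 2 members were lower in ABX than in GF WT mice (*Csf1* and *Csf3r*; background 6.88 percent), 2 were higher in GF than in SPF 5xFAD mice (*Csf1* and *Csf2ra*; background 12.8 percent), and 1 was lower in ABX than in GF 5xFAD mice (*Csf1*; background 10.6 percent). GF against SPF in WT mice called 0 members by edgeR (background 1.62 percent). There, 2 members had an unadjusted p under 0.05, beside 2538 of 15298 genes. DESeq2 and voomWithQualityWeights each called 1 member in this comparison, beside 707 and 1631 of these genes. With members this few, these shares describe the list and single out nothing about it.

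No member passed the test between ABX and SPF mice. In WT mice edgeR called 0 of 6, with 2 at an unadjusted p under 0.05 (*Csf1r* and *Csf3r*), and 0 percent of all tested genes, with 687 at an unadjusted p under 0.05. In 5xFAD mice it called 0 of 6, with 0 at an unadjusted p under 0.05, and again 0 percent of all genes, with 1085 at an unadjusted p under 0.05. DESeq2 and voomWithQualityWeights called 0 members in both. In WT mice the intervals of *Csf3r* (-0.22, -0.38 to -0.05, unadjusted p = 0.0109) and *Csf1r* (-0.15, -0.30 to -0.00, unadjusted p = 0.0447) left out 0, with an edgeR adjusted p of 1.00 for each. The 95% intervals for ABX against SPF in 5xFAD mice were widest for *Csf2rb2* (-0.75 to 0.15) and narrowest for *Csf1r* (-0.09 to 0.24).

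The size of the 5xFAD effect did not pass a test of difference between conditions for any member. Between GF and SPF mice edgeR called 0 of 6 members and 0 percent of all genes, with 1 member at an unadjusted p under 0.05 (*Csf2ra*, 0.43, 95% interval 0.00 to 0.85; 0.55 and adjusted p = 0.242 without FAD_GF_201). Between ABX and SPF mice it also called 0 of 6 and 0 percent, with 2 at an unadjusted p under 0.05 (*Csf1r*, 0.23, and *Csf3r*, 0.30). Between ABX and GF mice it called 0 of 6 beside 1.76 percent of all genes, with 2 at an unadjusted p under 0.05 (*Csf1r*, 0.30, and *Csf3r*, 0.36), and DESeq2 called 1. The *Csf1r* difference passed without WT_ABX_932 (0.37, adjusted p = 0.0398) and was 0.34 (adjusted p = 0.0549) without FAD_GF_201. For *Csf1* the effect in GF exceeded that in SPF mice by 0.34 (-0.17 to 0.85), and by 0.47 (adjusted p = 0.448) without FAD_GF_201, while with FAD_GF_201 among GF WT mice the sign turned (-0.28, adjusted p = 0.907).

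**Figure D4:**
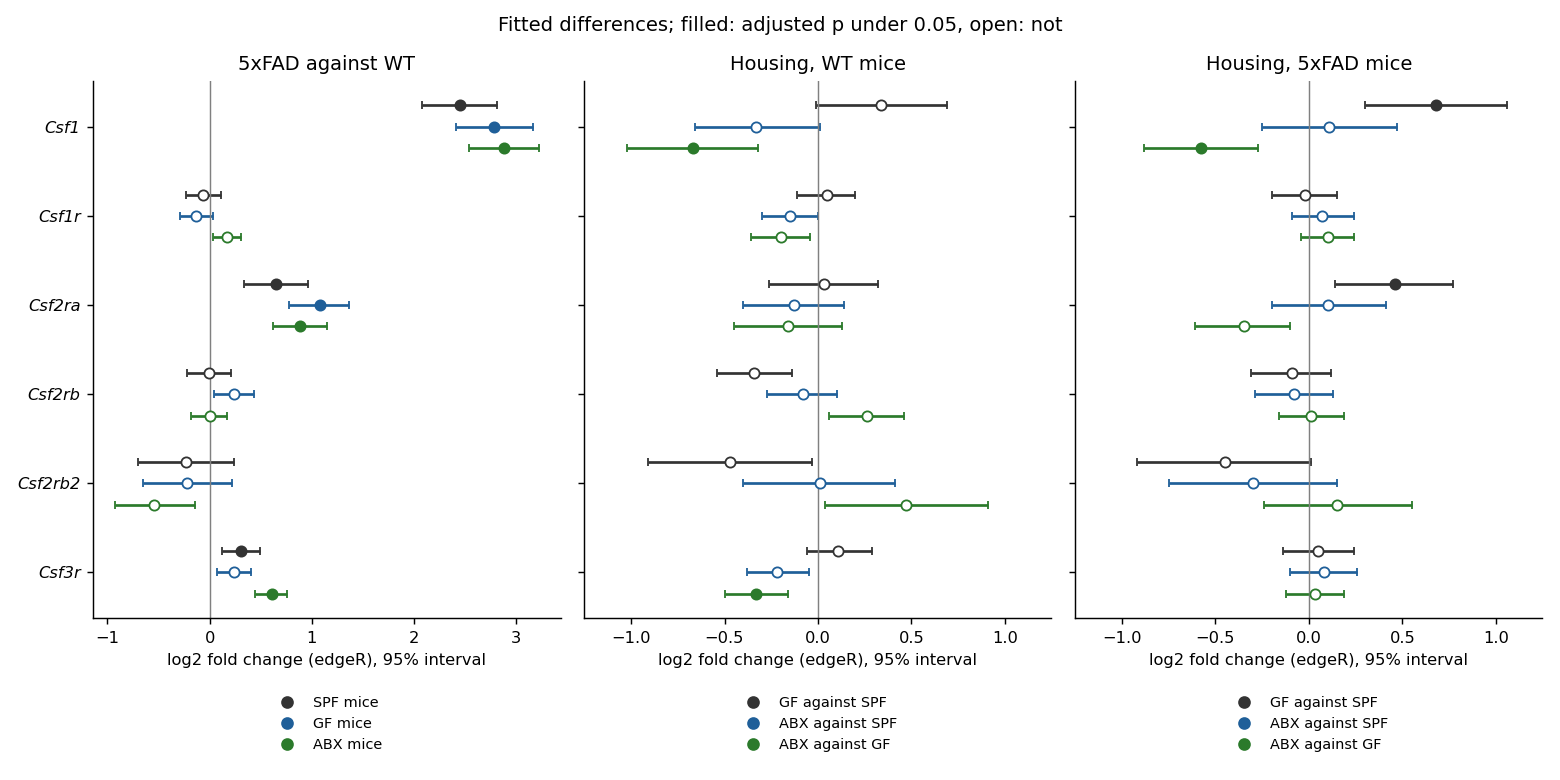
Log2 fold changes of edgeR (horizontal axis) of 6 members with 95% intervals, for 5xFAD against WT (left) and for housing in WT (middle) and 5xFAD mice (right), with filled points past an adjusted p of 0.05. In the left panel Csf1 lies between 2.45 and 2.88 and Csf2ra between 0.65 and 1.08, while Csf1r and Csf2rb lie between -0.13 and 0.24 with no filled point, and the intervals of Csf1r in ABX mice (0.03 to 0.31) and Csf2rb in GF mice (0.04 to 0.44) leave out 0.

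The other ligands of these receptors were not read in the sorted cells. *Csf2* (GM-CSF), *Csf3* (G-CSF), *Il3* and *Il5* had 0 reads in all 28 libraries, each with the same limit of up to 0.208 CPM. *Il5ra*, the alpha chain of the IL-5 receptor, had 3 reads, *Sdc1*, a syndecan that binds IL-34, had 30 reads in 6 mice, and *Ptprz1*, a further receptor of IL-34 on glia, had 89 reads in 13 mice and was called in no comparison. *Il3ra*, the alpha chain of the IL-3 receptor, rose in 5xFAD mice from 0.569 ± 0.269 to 4.25 ± 1.38 CPM in SPF mice (SD, n = 5 and 3; log2 2.88, SE 0.361, edgeR adjusted p = 1.68e-06). In GF mice it rose from 0.511 ± 0.203 to 9.47 ± 2.50 CPM (SD, n = 4 and 5; log2 4.17, SE 0.387, edgeR adjusted p = 3.53e-09), and in ABX mice from 0.658 ± 0.117 to 6.20 ± 2.45 CPM (SD, n = 5 and 6; log2 3.23, SE 0.333, edgeR adjusted p = 2.99e-08). *Il3ra* was also higher in GF than in SPF 5xFAD mice (log2 1.15, SE 0.358, adjusted p = 0.0316). Without FAD_GF_201 the rise of *Il3ra* in GF mice was 4.31 (adjusted p = 2.02e-09) and its difference between GF and SPF 5xFAD mice 1.28 (adjusted p = 0.0182).

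Of 24 genes for proteins that signal from CSF1R, all tested, 4 rose and 1 fell in SPF 5xFAD mice, 3 rose and 4 fell in GF, and 7 rose and 2 fell in ABX 5xFAD mice, where 4.57, 15.6 and 14.4 percent of all tested genes were called in SPF, GF and ABX mice. The median log2 difference of the list was -0.03, -0.07 and 0.13, beside -0.0270, -0.0255 and -0.0127 over all genes. *Tyrobp*, the adaptor of TREM2, was among the largest changes in GF 5xFAD mice (from 921 ± 139 to 3275 ± 711 CPM, SD, n = 4 and 5; log2 1.83), beside the Src family kinases *Fgr* (log2 2.20) and *Fyn* (log2 0.63). The same 3 genes also passed in SPF 5xFAD and in ABX 5xFAD mice, all higher. *Tyrobp* was also higher in GF than in SPF 5xFAD mice (log2 0.74, adjusted p = 0.00316) and lower in ABX than in GF 5xFAD mice (log2 -0.85, adjusted p = 0.000200). Without FAD_GF_201, 3 genes of the list rose and 5 fell in GF 5xFAD mice, *Fgr* was at 2.37 and *Fyn* at 0.62, and *Tyrobp* rose by 1.96 there (adjusted p = 2.92e-12), with differences of 0.86 (adjusted p = 0.000318) between GF and SPF and -0.97 (adjusted p = 5.57e-06) between ABX and GF 5xFAD mice.

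Of 17 genes that signal from the beta chain and the G-CSF receptor, all tested, 2 rose and 0 fell in SPF 5xFAD mice, 3 rose and 2 fell in GF, and 5 rose and 1 fell in ABX 5xFAD mice, beside the same 4.57, 15.6 and 14.4 percent of all tested genes. Their median log2 difference was 0.06, 0.09 and 0.24. In GF mice the rises were *Socs2*, a feedback inhibitor of cytokine signalling (log2 2.36, from 1.31 ± 0.251 to 6.77 ± 2.92 CPM), *Myc* (log2 1.23) and the survival gene *Bcl2* (log2 0.70). *Bcl2* and *Socs2* passed in SPF and ABX 5xFAD mice as well, *Bcl2* by log2 0.77 and 1.20 and *Socs2* by log2 3.34 and 2.61. Without FAD_GF_201 the counts in GF mice were again 3 and 2, with *Socs2* at 2.56, *Myc* at 1.32 and *Bcl2* at 0.83.

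Of 15 transcription factors of *Csf1r* and the microglial lineage, all tested, 1 rose in SPF 5xFAD mice, 2 rose and 3 fell in GF, and 2 rose and 1 fell in ABX 5xFAD mice, with medians of -0.09, -0.03 and 0.05 and beside 4.57, 15.6 and 14.4 percent of all tested genes. Without FAD_GF_201 the counts in GF mice were again 2 and 3, with *Egr2* at 2.80, *Ets2* at 0.70 and *Sall1* at -0.55. *Egr2* rose in all 3 conditions (log2 2.32, 2.64 and 1.99), and in GF mice *Ets2* rose (log2 0.66) and *Sall1*, a factor of microglial identity, fell (log2 -0.50, from 699 ± 44.2 to 495 ± 45.7 CPM). *Spi1*, which encodes the lineage factor PU.1 and is named here after its values were seen, passed in none of the 9 pairwise comparisons, but without FAD_GF_201 it was higher in GF than in SPF (log2 0.31, adjusted p = 0.0264) and lower in ABX than in GF 5xFAD mice (log2 -0.24, adjusted p = 0.0398). In ABX against SPF mice of either genotype none of the 3 lists had a called gene, beside 0 percent of all tested genes.

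The genes whose pattern was most like that of *Csf1* over the 28 mice were *Myo1e*, *Ank*, *Axl* and *Apoe*, with Pearson r of log2 CPM of 0.987, 0.985, 0.982 and 0.980 among 8922 genes. After group means were subtracted, r was 0.73, 0.63, 0.45 and 0.46. *Csf2ra* was followed most closely by *Cd68*, *Cd63*, *Syngr1* and *Npc2* (0.953, 0.952, 0.948 and 0.946; 0.67, 0.66, 0.69 and 0.64 after subtraction). *Csf1r* was most like *Pik3ap1*, *Daglb*, *Slc12a9* and *Plcb3* (0.863, 0.846, 0.833 and 0.831), and these values were almost as high within groups (0.86, 0.81, 0.78 and 0.83). Among the members, *Csf1* and *Csf2ra* had r = 0.93, *Csf1* and *Csf3r* 0.87, and *Csf1* and *Csf1r* 0.07 over the 28 mice, and 0.41, 0.52 and 0.03 within groups. These are descriptions over mice that share group, library and scaling, with no test.

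The label of the cells was checked with 10 microglia markers, whose summed CPM was between 44195 and 62195 and of which 3 fell in SPF, 4 in GF (5 without FAD_GF_201) and 5 in ABX 5xFAD mice. The 10 markers of amyloid-activated microglia all rose in 5xFAD mice under each condition, in GF mice also without FAD_GF_201, with a summed CPM between 2657 and 4168 in WT mice and between 8474 and 20879 in 5xFAD mice, as *Csf1* and *Csf2ra* did. Their medians were 10505 in SPF, 19754 in GF and 10828 CPM in ABX 5xFAD mice. Border-associated macrophage markers summed to between 3.38 and 43.5 CPM in WT and between 11.4 and 269 CPM in 5xFAD mice, and 6 of 8 rose in SPF, 0 in GF and 8 in ABX 5xFAD mice (*Mrc1* the most abundant, up to 97.0 CPM). They were also higher in GF than in SPF WT mice (6 of 8, and 5 without FAD_GF_201), as in the comparison where *Csf2rb* had an adjusted p of 0.0654. These macrophages also express *Csf1r*, whose level was 11027 CPM or more in each mouse, and their part in the members' values was not tested. Monocyte markers summed to at most 54.4 CPM (*Ccr2*), neuron markers to 20.3 (*Snap25*), endothelial markers to 54.0 (*Pecam1*, with *Ly6c1* at 0), and T cell markers to 0.376 CPM (*Cd3g*, with *Cd8a* at 0). Astrocyte markers reached 322 CPM, nearly all *Slc1a3*, oligodendrocyte markers 240 (*Cnp*), and B cell markers 51.9, nearly all *Cd79b*. Of the 6 astrocyte markers tested, *Aldoc* and *Gfap* were higher and *Slc1a3* lower in GF 5xFAD than in GF WT mice, and none was called in SPF or ABX mice. Of the 4 endothelial markers tested, *Flt1* was higher in SPF and ABX and *Pecam1* lower in GF and ABX 5xFAD mice. The part of these cells in the genotype differences of *Csf1* and *Csf2ra* was not tested.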

How the data were processed

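Libraries were SMARTer v4 cDNA with Nextera XT, read as 50-base single reads without strand. According to the study's methods, the authors aligned reads with STAR to GRCm38 and counted them per gene of GENCODE M21 with featureCounts. The submitters' processing notes give STAR 2.7.2 and featureCounts 1.6.2, and name GRCh38.p12, a human build, instead. GENCODE M21 holds 46484 of the 48587 gene symbols in the table, and its exon models span the same bases as M21 for 3 of the 7 members (*Csf1*, *Il34* and *Csf3r*), so the annotation behind the counts is not certain. The authors deposited raw counts per gene and a gene length for 28 mice, and every count column was used. The counts of 92 spike-in entries (at most 12 reads in a library) were left out.

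Of 48587 genes, 15298 passed edgeR's filterByExpr (count minimum 10, total minimum 15). Differences were tested with edgeR 4.0.16 in R 4.3.3 (TMM, quasi-likelihood test, 1 term for each of 6 groups over 28 mice), with Benjamini-Hochberg adjustment over all tested genes and a threshold of 0.05. Replicates were separate mice. CPM used TMM-scaled library sizes. The alternatives were RLE factors, library size alone, no filter, DESeq2 1.42.0, voomWithQualityWeights (limma 3.58.1, as named in the study's methods), gene length offsets, 26 mice (without FAD_ABX_1151 and FAD_ABX_1482), FAD_GF_201 among GF WT mice, only the groups compared, each mouse left out, and both beta chain genes summed. Counts of listed genes without FAD_GF_201 were added after the data were seen. The tests were checked on simulated data.

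The 7 members, the lists and the alternatives were chosen with earlier results of these data known. Beside the members, the text names up to 3 genes of each pathway list with the largest change in GF mice among those past the threshold, all other ligands and receptor chains, the 4 genes most like *Csf1*, *Csf1r* and *Csf2ra* among genes with a mean log2 CPM of at least 3, and the most abundant gene of each marker list (for 1 list it is not reported here) with markers at 0. Other marker genes called in a comparison were named after their values were seen. The intervals of fold changes are 95% intervals.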

Additional observations from a re-analysis of the deposited data

How the results depend on the processing

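The number of members called was 2 in GF 5xFAD against WT mice, 3 with RLE factors, library size alone, DESeq2, voomWithQualityWeights or 26 mice, and 4 with FAD_GF_201 among GF WT mice. Over all tested genes these fits called 2391, then 2403, 3026, 2770, 2455, 2728 and 2420, in this order. For GF against SPF in WT mice it was 0, and 1 with DESeq2, voomWithQualityWeights or 26 mice, and 2 with FAD_GF_201 among WT mice or only the groups compared. The calls over all genes in these fits were 248, then 707, 1631, 659, 716 and 1286. For GF against SPF in 5xFAD mice it was 2, and 1 with RLE factors, library size alone, no filter or only the groups compared (*Csf1* alone) or with FAD_GF_201 among WT mice (*Csf2ra* alone), and 3 with voomWithQualityWeights (with *Csf2rb2*). Calls over all genes in these fits were 1962, then 1955, 1916, 1539, 1551, 2003 and 3872. For ABX against GF in 5xFAD mice it was 1, and 2 with voomWithQualityWeights or 26 mice and 0 with only the groups compared (over all genes 1621, then 1511, 1601 and 251). For the difference of the 5xFAD effect between ABX and GF mice it was 0, and 1 with library size alone or DESeq2 (over all genes 269, then 278 and 576). The fits tested 15298 genes, but 15278 with 26 mice and 29674 without filter. With only the groups compared they tested 13395, 13737 and 13308 genes in the 3 comparisons named.

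Leaving out 1 mouse at a time gave 2 to 3 members called in SPF, 2 to 4 in GF and 3 to 5 in ABX 5xFAD against WT mice, and 4 to 5 in the F test. It gave 0 to 1 for GF against SPF in WT mice, 0 to 3 for ABX against GF in WT mice, 0 to 2 for GF against SPF and 1 to 2 for ABX against GF in 5xFAD mice, and 0 to 2 for the 5xFAD effect between ABX and GF mice. Calls over all genes in the fits without 1 mouse are not given here, so these ranges describe the members alone. Over 25 single differences of members, 829 alternative fits kept the direction and the side of the threshold, 45 passed where the reported fit had not, 54 no longer passed, and none reversed. The difference of the *Csf1* effect between GF and SPF mice, not among these, turned from 0.34 to -0.28 with FAD_GF_201 among GF WT mice. The 25 were not all differences of members, and others near 0 also changed sign among the alternatives. In GF against SPF 5xFAD mice, for instance, *Csf1r* ranged from -0.12 to 0.10, *Csf2rb* from -0.19 to 0.03 and *Csf3r* from -0.05 to 0.14. The cause of these changes was not tested.

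Counts over all genes moved more. With voomWithQualityWeights 2154 genes were called in SPF mice (699 reported), 1631 for GF against SPF in WT mice (248), 2025 for ABX against GF in WT mice (1053), 3872 for GF against SPF in 5xFAD mice (1962) and 7868 in the F test (5079). DESeq2 called 707 for GF against SPF and 1606 for ABX against GF in WT mice, and 576 for the 5xFAD effect between ABX and GF mice (269). With 26 mice GF against SPF in WT mice had 659 genes, and with FAD_GF_201 among WT mice 716, beside 1672 for ABX against GF. Only the groups compared gave 1340 in SPF, 1321 in ABX mice (2207), 1286 for GF against SPF in WT mice, 251 for ABX against GF in 5xFAD mice (1621) and 67 for the 5xFAD effect between ABX and GF mice, for which gene length offsets gave 170. Where 0 genes were reported, ABX against SPF gave 2 in WT mice with DESeq2, and 8 with DESeq2, 134 with voomWithQualityWeights and 36 with 26 mice in 5xFAD mice. The 5xFAD effect between GF and SPF mice gave 25 with DESeq2, 116 with voomWithQualityWeights and 3 with 26 mice or gene length offsets. The same effect gave 2 without filter and 1 with only the groups compared. That between ABX and SPF mice gave 1 with DESeq2 or 26 mice and 14 with voomWithQualityWeights. With library size alone 1107 genes were higher and 1919 lower in GF 5xFAD mice (1442 and 949 reported) and 1160 and 1311 in ABX 5xFAD mice (1445 and 762), with the median of all genes at -0.150 in GF mice (-0.0255 reported). With gene length offsets it was 0.134 for GF against SPF in 5xFAD mice (0.0182 reported). No paired analysis was possible because replicate numbers are mouse numbers that the groups do not share.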
